A study of Mus musculus with 6 samples.

Results

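The 10 genes described here encode core components of necroptosis and of the receptor complexes that hold it in check, namely Mlkl, Ripk3, Ripk1, Zbp1, Casp8, Fadd, Cflar, Tradd, Adar and Pgam5. They were chosen by name from knowledge of the pathway, with earlier results of these data known. The members are 10 of the 36047 genes and 56 of the 116816 transcripts matched to the GENCODE vM21 annotation of the mouse genome build GRCm38. Expression was measured by RNA-seq of polyadenylated RNA from MLE-12, a wild-type mouse lung epithelial cell line made with a viral large T antigen and used as a model of the distal airway lining. The PBS group (3 libraries) received phosphate-buffered saline, and the CSE group (3 libraries) received cigarette smoke extract, a solution of smoke constituents, at 5% with an optical density of 2.0. Both were added to cultures at 30% density, in medium with low serum that both groups shared, and cells were collected after 24 h. Whether the 3 libraries of each group stem from independent cultures is not stated in the labels. All p-values below therefore reflect library-to-library spread alone, and that spread may be technical.

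Necroptosis is a programmed form of cell lysis. Receptors such as TNFR1 bring together the kinases RIPK1 and RIPK3, and the nucleic acid sensor ZBP1 recruits RIPK3. RIPK3 phosphorylates MLKL, which then moves to the plasma membrane and breaks it. Caspase-8, held with FADD and the CFLAR protein cFLIP, cleaves the kinases and so restrains the process, while the RNA-editing enzyme ADAR1 limits the double-stranded RNA that ZBP1 can sense. The series title names ZBP1-mediated necrosis in chronic obstructive pulmonary disease, and the comparison addresses whether the RNA of these components differs after smoke extract. RNA levels do not show phosphorylation, cleavage or assembly of these proteins, on which the pathway turns. In smoke-exposed airway epithelium, necroptosis has been studied as a source of inflammatory cell death.

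Mlkl rose after CSE, and it was the only one of the 10 genes called. Of the 9 members with enough counts for the test, 1 was higher, 0 were lower and 8 were not called (quasi-likelihood test of edgeR, Benjamini-Hochberg adjusted over 13451 genes, called at an adjusted p under 0.05). Over all genes tested, 12.0% were called, 4.64% higher and 7.36% lower, so 1 call in 9 is near the background. Without PBS replicate 2, 2 members were called, Mlkl and Casp8. The fitted change was above 0 in 6 members and below 0 in 3, with a median log2 change of 0.14 against 0.0056 for all genes. At an unadjusted p under 0.05 stood 3 members (Mlkl, Casp8 and Fadd), where 25.7% of all genes did. Zbp1, the sensor named in the series title, had too few counts to be tested.

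In level per length (TPM, a measure of transcript abundance that takes account of length and depth and sums to the same total in every library), the members spanned a wide range. In PBS the order was Pgam5, Casp8, Tradd, Mlkl, Ripk1, Adar, Cflar, Fadd, Ripk3 and Zbp1, from a mean of 115 TPM for Pgam5 to 0.162 TPM for Zbp1. The neighbours Tradd and Mlkl, Mlkl and Ripk1, and Adar and Cflar overlapped in their PBS libraries, and the other neighbours did not. In CSE, Mlkl stood above Tradd without overlap, and only Adar and Cflar overlapped. The remaining order was the same. The executioner Mlkl was thus among the well-expressed members, while its activating kinase Ripk3, at 1.35 TPM in PBS, and the sensor Zbp1 stood lowest.

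**Figure D1:**
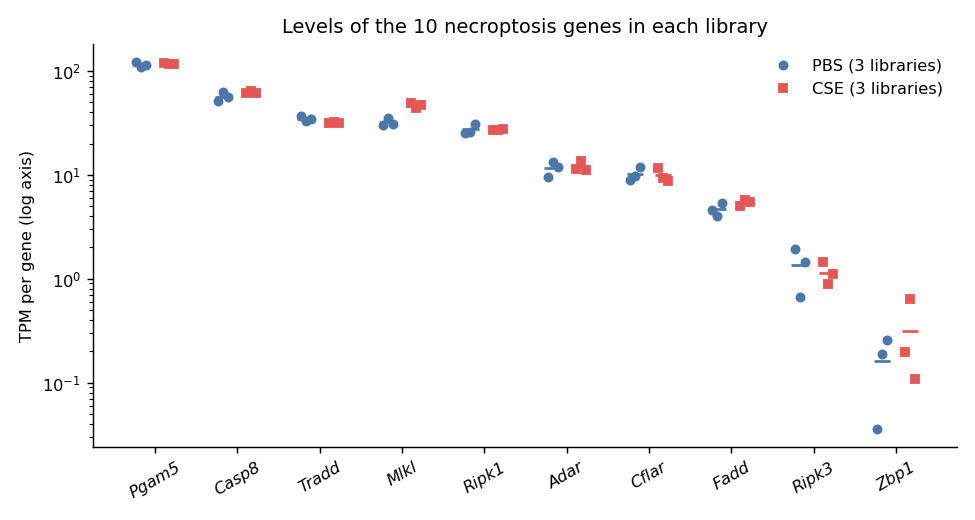
Each point is the TPM of a gene in 1 library on a log axis, blue circles for the 3 PBS and red squares for the 3 CSE libraries, with a line at each group mean. The CSE points of Mlkl lie at 44.1 to 49.1 TPM, above its PBS points at 30.0 to 35.1, Tradd lies slightly lower in CSE, and the other 8 genes overlap between groups.

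The libraries held 12093009 to 24050167 estimated counts, and a count of 3, the limit that a count of 0 allows, corresponded to 0.126 to 0.250 CPM, counts scaled to library size. The labels give the samples as a cell line but describe extraction from lung tissue, so markers of other lung cells were examined. The epithelial markers Krt19, Krt8 and Nkx2-1 were abundant, whereas Krt18 (15 counts in PBS, 6 in CSE) and Cldn4 (1 and 0) were at or near 0. Epcam, Cdh1 and Sftpc were low, at means of 2.36, 6.04 and 3.09 TPM in PBS and 1.54, 2.98 and 0.942 TPM in CSE. The summed level of 9 epithelial markers was 1303 to 1418 TPM in PBS and 721 to 814 TPM in CSE. Most of this was Krt19, at a mean of 1005 TPM in PBS and 493 TPM in CSE. Of the 7 markers tested, 5 were lower. The number of lower markers fell to 3 (Cdh1, Krt19 and Cldn3) without PBS replicate 1 or with any 1 CSE library left out. Krt8 and Sftpc then lost their calls. The 10 leukocyte markers summed to 5.47 to 8.54 TPM in PBS and 5.19 to 7.66 TPM in CSE, with 1 of 3 tested (Csf1r) higher, Ptprc at 16 and 25 counts and Adgre1 at 0. Without PBS replicate 3, and likewise without CSE replicate 2, 0 leukocyte markers were called. Csf1r lost its call in 5 settings, among them an offset for effective transcript length and both TPM scales. In TPM its groups overlapped, at 1.66, 1.57 and 2.05 in PBS and 2.02, 1.80 and 2.17 in CSE. The 6 endothelial markers summed to 2.02 to 2.65 and 1.06 to 1.54 TPM, with Cdh5 at 0. The 6 fibroblast markers summed to 868 to 1126 and 477 to 544 TPM, of which nearly all was Dcn. Of the 3 fibroblast markers tested, Dcn and Col1a1 were lower and Pdgfra was higher, at a mean of 2.67 TPM in PBS and 4.49 TPM in CSE (log2 change 0.84 ± 0.12, SE, edgeR adjusted p = 0.000671), while Col1a2, Col3a1 and Lum had at most 27 counts in a group. The part of these markers in the results below was not tested.

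Mlkl (ENSMUSG00000012519.14, chr8:111311797-111338177, minus strand) encodes the pseudokinase that carries out membrane rupture. It measured 30.0, 35.1 and 30.9 TPM in PBS replicates 1 to 3 and 49.1, 44.1 and 47.1 TPM in the CSE replicates. Every CSE library stood above every PBS library, a pattern that 7.89% of the tested genes showed. The mean rose from 32.0 ± 2.73 to 46.7 ± 2.50 TPM (SD, n = 3 each), on 1826 estimated counts in PBS and 2857 in CSE. In the edgeR fit this was a log2 change of 0.62 ± 0.09 (SE), or 1.54-fold, with an adjusted p of 0.000671. The call held under each of 16 other settings, with log2 changes of 0.54 to 0.68. It was the 172nd of 624 called rises when ordered by the size of the log2 change. In these bulk libraries, a larger share of cells with the RNA and more RNA per cell cannot be told apart.

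Of the 4 annotated Mlkl transcripts, the protein-coding Mlkl-201 (ENSMUST00000056157.13) and Mlkl-202 (ENSMUST00000120432.2) held nearly all of the signal. They code for 472 and 464 codons and differ within the coding region by 24 bases at chr8:111314941-111314964 on GRCm38. Their sequences around this point are printed 5′ to 3′ on the minus strand, from GENCODE vM21, because they show how small the feature is that separates the 2 forms. Capitals mark the bases found in Mlkl-201 alone, with 20 flanking bases on either side in lower case.
Mlkl-201: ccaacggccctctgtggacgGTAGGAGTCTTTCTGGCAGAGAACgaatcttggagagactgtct
Mlkl-202: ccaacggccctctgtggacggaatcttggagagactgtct

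Both coding forms of Mlkl stood higher in every CSE library than in every PBS library. They divide the reads of the same gene, so they are not separate evidence for its rise. The share of all transcripts with this pattern is not given here. Mlkl-201 measured 5.89, 10.2 and 8.55 TPM in PBS and 14.2, 12.6 and 12.3 TPM in CSE. Mlkl-202 measured 24.1, 24.3 and 21.5 TPM in PBS and 33.5, 29.1 and 34.8 TPM in CSE. At transcript level the fitted log2 changes were 0.77 ± 0.20 for Mlkl-201 and 0.57 ± 0.13 for Mlkl-202 (SE), and neither was called by edgeR (adjusted p = 0.213 and 0.170, unadjusted p = 0.0073 and 0.00458). Transcript counts varied more between libraries than gene counts did, with a biological coefficient of variation of 42.2% against 9.17%.

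The balance between the Mlkl forms overlapped between the groups. Mlkl-201 took 19.6%, 29.0% and 27.7% of the gene's TPM in PBS and 28.9%, 28.6% and 26.1% in CSE, with PBS replicate 1 the lowest. The difference in its mean share was 2.43 percentage points (exact permutation test, two-sided, p = 0.7; the smallest p that 3 libraries a group can give is 0.1). The split rests on few reads, since 2.84% of the 31-base words of Mlkl-201 occurred in no other transcript and 0 words of Mlkl-202 did. No word of either form occurred in a transcript of another gene, although the pseudogene Gm45712, at a mean of 0.54 TPM in PBS and 0.95 TPM in CSE, overlaps Mlkl on the opposite strand. The processed transcript Mlkl-203 took at most 5.35% of the gene's TPM in any library.

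**Figure D2:**
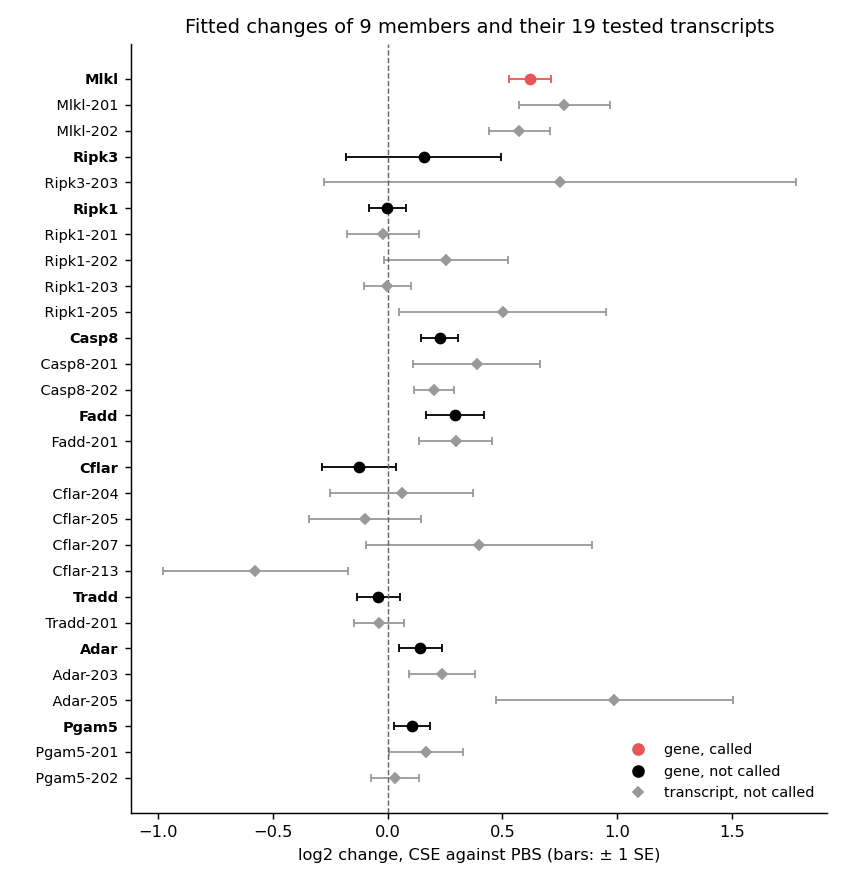
Points show the fitted log2 change of CSE against PBS for 9 members (circles) and 19 of their transcripts (diamonds), with bars of 1 SE on either side. Mlkl, in red at 0.62, is the only called point, both of its coding transcripts lie on the same side at 0.77 and 0.57, and the bars of Ripk3, Ripk1, Cflar and Tradd cross 0.

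Ripk3 (ENSMUSG00000022221.14, chr14:55784995-55788865, minus strand) encodes the kinase that activates MLKL, and it was a rare transcript in these cells. Its estimated counts were 13, 13 and 18 in PBS and 14, 21 and 15 in CSE. In TPM it measured 1.94, 0.665 and 1.44 in PBS and 1.43, 0.880 and 1.11 in CSE, and the groups overlapped. The log2 change was 0.16 ± 0.34 (SE, edgeR adjusted p = 0.817). Summed over a group and scaled to depth, CSE stood at 1.09 times PBS, and counting error alone (conditional exact binomial, 95%) allowed 0.715 to 1.68 times. These limits include a rise as well as a fall and leave out the spread between libraries. Changes inside them could not be told from no change, and larger ones could also be missed. The sign of the fitted change turned with an offset for effective transcript length (−0.08) and on both TPM scales, where it was −0.10 and −0.14.

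A pair of protein-coding Ripk3 transcripts alternated between libraries. In PBS replicate 2 all 13 counts were assigned to Ripk3-201 and 0 to Ripk3-203, while in the other 5 libraries Ripk3-203 held 9.7, 15.8, 13.1, 20.5 and 12.5 counts. Ripk3-201 codes for 486 codons and Ripk3-203, which begins translation further on, for 422. The 17 bases at chr14:55788365-55788381 (GRCm38) are in Ripk3-201 and not in Ripk3-203, and are shown in capitals on the minus strand, since reads over this junction are among the few that can tell the pair apart.
Ripk3-201: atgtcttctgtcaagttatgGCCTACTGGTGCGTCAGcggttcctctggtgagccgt
Ripk3-203: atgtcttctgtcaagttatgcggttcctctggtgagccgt

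By share of TPM, Ripk3-203 was the only one of 26 transcripts tested whose groups lay apart, where 11.6% of transcripts in all genes did. It took 33.7%, 0% and 55.6% of the gene's TPM in PBS and 70.9%, 87.4% and 58.0% in CSE (two-sided exact permutation p = 0.1, the smallest possible). By share of estimated counts the groups overlapped, and then 0 of the 26 lay apart. The words found only in 1 form were 2.04% of Ripk3-201 and 1.58% of Ripk3-203, so with these counts few reads could tell them apart. The retained-intron transcript Ripk3-206, of 478 bases, held at most 3.3 counts in a library but, being short, took 66.3%, 0% and 44.4% of the TPM in PBS and 29.1%, 12.6% and 0% in CSE. The lower TPM shares of Ripk3-203 in PBS replicates 1 and 3 thus stood beside 3.3 and 2.2 counts of Ripk3-206.

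Zbp1 (ENSMUSG00000027514.14, chr2:173206612-173218923, minus strand) encodes the sensor of left-handed double-stranded nucleic acid that recruits RIPK3. Its counts were 1, 7 and 5 in PBS and 4, 9 and 4 in CSE, which overlap. Scaled to depth, the 17 counts of CSE were 1.26 times the 13 of PBS, with counting limits (95%) of 0.576 to 2.82 times, and the ratio of mean TPM was 1.95. In TPM it measured 0.0359, 0.190 and 0.258 in PBS and 0.195, 0.640 and 0.110 in CSE (two-sided exact permutation p = 0.5). These limits include a rise as well as a fall, so no difference could be detected with so few counts.

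Most Zbp1 counts did not come from the protein-coding transcripts. The retained-intron transcript Zbp1-203 held 12 of the counts in PBS and 11 in CSE. The protein-coding Zbp1-201, of 411 codons, and Zbp1-202, of 187 codons, together held 1.0 count in PBS and 6.0 in CSE. Of these, 5.0 counts of Zbp1-202 lay in CSE replicate 2 alone, 1.0 count of Zbp1-201 in CSE replicate 1 and 1.0 count of Zbp1-202 in PBS replicate 3. Over a group's summed libraries, the floor of 3 counts was 0.0590 CPM in PBS and 0.0567 CPM in CSE. Both kinds of transcript were at the edge of detection, and a count of 1 in PBS gives no usable fold change for the coding forms.

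**Figure D3:**
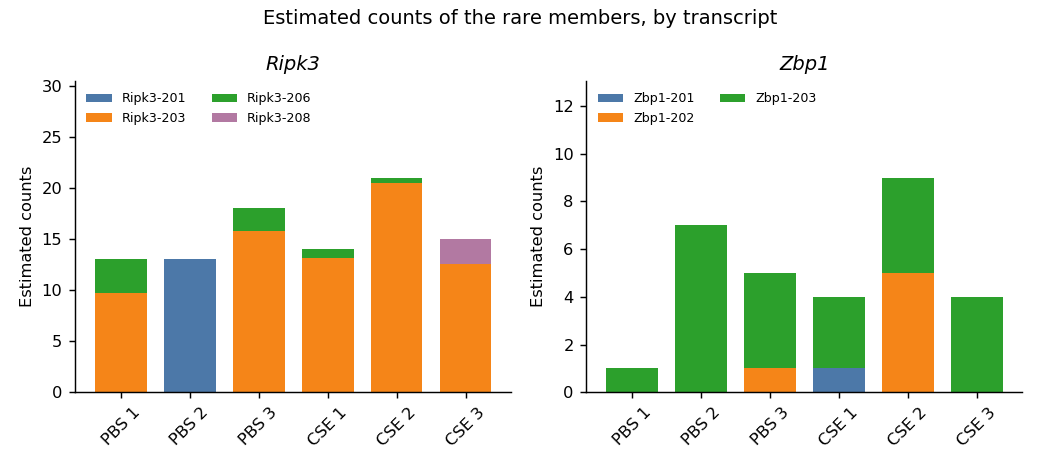
Bars show the estimated counts of Ripk3 (left) and Zbp1 (right) in each of the 6 libraries, with the transcripts stacked in colours. PBS replicate 2 has its 13 Ripk3 counts in Ripk3-201 where the other libraries have mostly Ripk3-203, and the Zbp1 bars are mostly the retained-intron Zbp1-203, except for 5.0 counts of Zbp1-202 in CSE replicate 2.

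Ripk1 (ENSMUSG00000021408.15, chr13:34002363-34037147, plus strand) encodes the kinase and scaffold that sits between survival and death signalling at TNFR1. It measured 25.2, 26.1 and 30.7 TPM in PBS and 26.8, 27.1 and 27.5 TPM in CSE, so the CSE values lay inside the PBS range. The log2 change was −0.0018 ± 0.08 (SE, edgeR adjusted p = 0.992), with a sign that turned between settings and values between −0.07 and 0.07. Its main forms Ripk1-201 and Ripk1-203 share a coding region of 656 codons and differ outside it. They took 38.4% to 50.3% and 28.5% to 37.3% of the gene's TPM over the 6 libraries, and neither share separated the groups. The retained-intron transcript Ripk1-205 took 9.35% to 27.3% and the retained-intron Ripk1-202 took 4.18% to 6.09%, also with overlapping groups. Ripk1 shared 481 of its 31-base words with the processed pseudogene Gm17084, which lies inside it on the same strand and measured a mean of 10.2 TPM in PBS against 8.39 TPM in CSE, so reads could be split between them. It shared 213 words with Serpinb6a, which overlaps it on the opposite strand.

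Tradd (ENSMUSG00000031887.13, chr8:105258286-105264609, minus strand) encodes the adaptor that links TNFR1 to RIPK1. It measured 36.8, 32.6 and 34.8 TPM in PBS and 31.4, 32.2 and 31.6 TPM in CSE. Every CSE library was below every PBS library in TPM, as in 19.3% of the tested genes, and the gap between the nearest libraries was smaller than the PBS spread. The mean went from 34.8 ± 2.10 to 31.7 ± 0.453 TPM (SD, n = 3 each; two-sided exact permutation p = 0.1, the smallest possible). In counts scaled to library size the groups overlapped, and the edgeR log2 change was −0.04 ± 0.09 (SE, adjusted p = 0.832). Tradd-201, of 310 codons, took 92.0% to 94.2% of the TPM in each library.

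The caspase-8 complex gave no call in the full comparison. Casp8 (ENSMUSG00000026029.14, chr1:58795374-58847503, plus strand) encodes the protease that starts apoptosis and cleaves RIPK1 and RIPK3. It measured 51.3, 62.3 and 55.9 TPM in PBS and 61.2, 63.9 and 60.7 TPM in CSE. PBS replicate 2 lay among the CSE libraries, and the other PBS libraries lay below them. The log2 change was 0.23 ± 0.08 (SE), with an unadjusted p of 0.0151 and an adjusted p of 0.0911 in edgeR. Without PBS replicate 2 it was 0.30 and called (edgeR adjusted p = 0.0200), and over all 16 other settings the adjusted p ran from 0.0200 to 0.444. Casp8-202 took 83.8% to 91.8% of the TPM, and it and Casp8-201 share 480 codons and differ outside the coding region.

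Fadd (ENSMUSG00000031077.7, chr7:144577318-144582463, minus strand) encodes the adaptor that binds caspase-8 to death receptors. It measured 4.62, 4.03 and 5.35 TPM in PBS and 4.98, 5.66 and 5.43 TPM in CSE, with PBS replicate 3 inside the CSE range. In counts scaled to library size alone, the CSE libraries lay above the PBS libraries. The log2 change was 0.29 ± 0.13 (SE), with an unadjusted p of 0.0398 and an adjusted p of 0.169 in edgeR. Fadd has 1 annotated transcript, and 97.0% of its words occurred in no other.

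Cflar (ENSMUSG00000026031.15, chr1:58711508-58758884, plus strand) encodes cFLIP, the catalytically inactive partner of caspase-8, whose long form permits a limited protease activity that protects from necroptosis. It measured 8.90, 9.81 and 12.0 TPM in PBS and 11.7, 9.37 and 8.68 TPM in CSE, with full overlap, and its log2 change was −0.12 ± 0.16 (SE, edgeR adjusted p = 0.678). Cflar-205, of 481 codons, the length of the long form, took 35.0%, 39.9% and 50.9% of the TPM in PBS and 38.8%, 34.2% and 42.5% in CSE. Cflar-204, of 215 codons, a short form, took 13.3%, 23.9% and 14.5% in PBS and 16.2%, 17.9% and 17.4% in CSE. Neither share separated the groups. The other Cflar transcripts named by level, Cflar-207, Cflar-210 and Cflar-213, are not protein-coding. They took 11.9% to 29.8%, 2.59% to 15.9% and 3.18% to 8.58% of the TPM, in that order. Cflar shared words with many genes, 568 of them with the processed pseudogene Gm9845, which was listed at 0 in all 6 libraries.

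Adar (ENSMUSG00000027951.16, chr3:89715022-89753446, plus strand) encodes ADAR1, whose interferon-inducible long form p150 binds the same left-handed RNA as ZBP1. It measured 9.54, 13.3 and 11.9 TPM in PBS and 11.3, 13.6 and 11.1 TPM in CSE, which overlap. The log2 change was 0.14 ± 0.10 (SE, edgeR adjusted p = 0.379). Adar-203 codes for 1178 codons, the length of p150, and took 93.3%, 82.7% and 70.4% of the TPM in PBS and 88.6%, 85.4% and 87.1% in CSE. Adar-202 codes for 930 codons, the length of the constitutive p110. It held 150.3 counts in PBS replicate 3, or 18.6% of the gene's TPM there, and at most 0.3 counts in any other library. Only 0.459% of the words of Adar-202 and 0 words of Adar-203 were found in no other transcript. Between the pair, the first 129 bases of Adar-202 and the first 91 of Adar-203 are absent from the other. The assignment in that library thus rests on short stretches at the start. Without that library the difference in the mean share of Adar-203 was −0.92 percentage points in place of 4.95.

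Adar-203 also shared 21.5% of its words with transcripts of other genes. Most of these lay in Chrnb2, a nicotinic receptor subunit gene that overlaps Adar on the opposite strand and measured a mean of 1.15 TPM in PBS against 1.09 TPM in CSE. The strand setting of the quantification is not given in the sources used here, so reads from the stretch they share could not be assigned to one of the pair by sequence.

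Pgam5 (ENSMUSG00000029500.16, chr5:110259130-110269913, minus strand) encodes a mitochondrial phosphatase that has been placed downstream of RIPK3 in some reports. It was the most abundant member, with 121, 109 and 115 TPM in PBS and 119, 117 and 116 TPM in CSE, which overlap. The log2 change was 0.10 ± 0.08 (SE, edgeR adjusted p = 0.438). Its coding forms Pgam5-201, of 287 codons, and Pgam5-202, of 288, differ within the coding region by 3 bases at chr5:110265643-110265645, shown on the minus strand with the bases of Pgam5-202 alone in capitals, to give the size of the difference that the split rests on.
Pgam5-202: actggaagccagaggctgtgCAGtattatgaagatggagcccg
Pgam5-201: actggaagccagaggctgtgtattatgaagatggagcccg

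Pgam5-201 took 63.2%, 49.2% and 60.7% of the gene's TPM in PBS and 60.4%, 57.6% and 62.7% in CSE, with PBS replicate 2 the lowest and the groups overlapping. Of the words of Pgam5-202, 2.47% occurred in no other transcript, and 0 words of Pgam5-201 did. The form with the added codon was assigned reads in every library, at shares that did not separate the groups.

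Across the family, no change of isoform was called. Of the 56 member transcripts, 44 had a count in some library, 12 were at 0 in all, and 27 reached a mean of 0.5 TPM in a group. At transcript level edgeR tested 19 and called 0, with 2 (both Mlkl forms) at an unadjusted p under 0.05. In all genes, 0.887% of transcripts were called and 10.6% stood at an unadjusted p under 0.05, and limma on log2(TPM + 0.1) also called 0 of the member transcripts. A test of whether the transcripts of a gene changed by different amounts (edgeR's diffSpliceDGE) could be made for Mlkl, Ripk1, Casp8, Cflar, Adar and Pgam5. It called 0 of these 6, with 0 at an unadjusted p under 0.05 and adjusted p-values of 0.902 to 1.00, where 0.746% of all genes were called. The splitting of reads among transcripts carries an uncertainty that none of these tests holds.

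**Figure D4:**
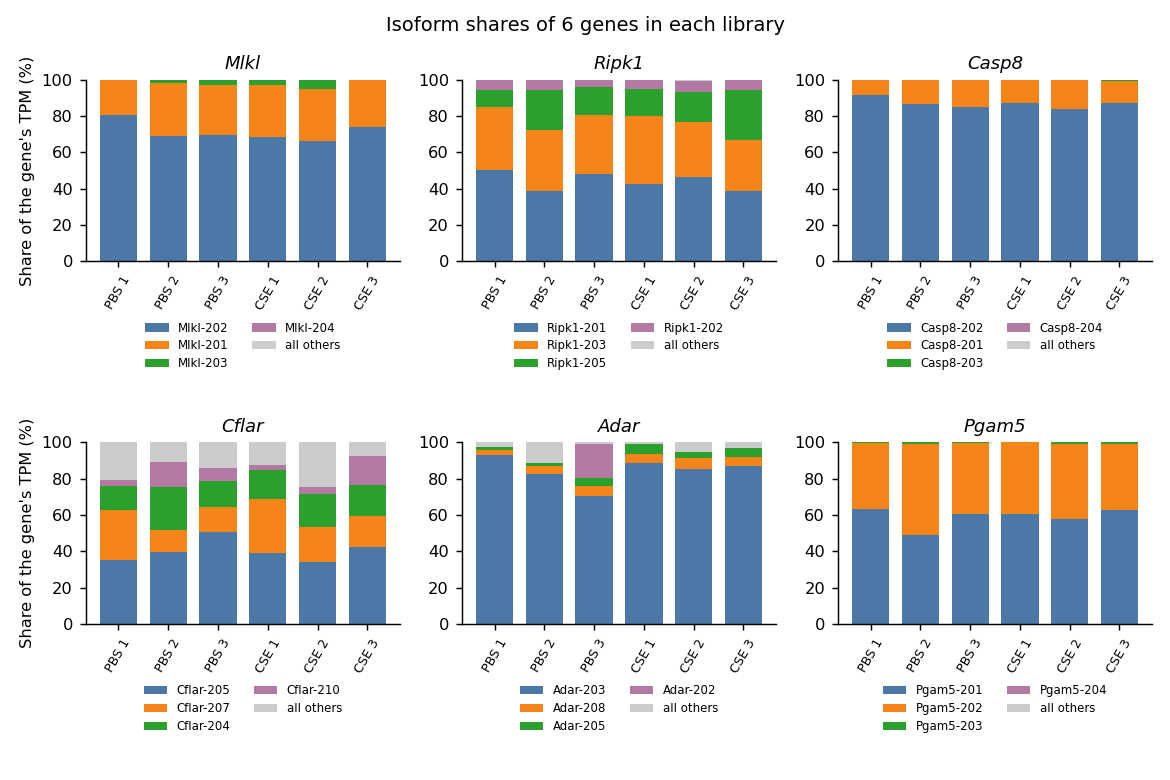
Stacked bars show the percentage of a gene's TPM in each of its 4 most abundant transcripts, with the rest in grey, for 6 genes in the 3 PBS and 3 CSE libraries. None of the transcripts of these genes that were tested separates the groups by its share, and Adar-202 appears in PBS replicate 3 alone, at 18.6%.

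The death receptor gene Fas rose. Of 14 genes in a list of receptors, ligands and sensors that feed the pathway, 12 were tested, 2 rose, 0 fell and 10 were not called. Over all genes tested, 12.0% were called, 4.64% higher and 7.36% lower. The list's median log2 change was 0.11 against 0.0056 for all genes. Fas, whose product recruits FADD and caspase-8, measured 31.8, 37.0 and 29.4 TPM in PBS and 55.5, 54.0 and 57.3 TPM in CSE, without overlap, a log2 change of 0.88 ± 0.11 (SE, edgeR adjusted p = 0.000199) that was called in all other settings run. Ifnar2, a subunit of the type I interferon receptor, measured 122, 130 and 109 TPM in PBS and 151, 143 and 141 TPM in CSE. Its log2 change of 0.31 ± 0.08 (SE, edgeR adjusted p = 0.0302) lost its call in 7 settings, among them with PBS replicate 3 or any 1 CSE library left out, where the list held 1 call. The ligand genes Tnf, with 4 counts in PBS and 0 in CSE, and Fasl, with 4 in each group, were too rare to be tested.

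Among the ubiquitin enzymes and kinases of the TNFR1 complex, Ikbkg rose and Ikbkb fell. Of the 22 tested genes, 20 were not called, where 12.0% of all genes were called. The median log2 change was −0.05 against 0.0056 for all genes. Ikbkg encodes NEMO, the ubiquitin-binding subunit of the IKK complex that keeps RIPK1 from its death-promoting state. It measured 17.9, 19.5 and 19.4 TPM in PBS and 34.9, 32.0 and 31.8 TPM in CSE, without overlap. Its log2 change of 0.80 ± 0.07 (SE, edgeR adjusted p = 1.16e-05) was called in all other settings run. Ikbkg overlaps G6pdx on the opposite strand, and G6pdx itself was at −0.05 ± 0.08 (log2 change, SE). Ikbkb, a catalytic subunit of the same complex, measured 64.4, 78.1 and 74.0 TPM in PBS and 59.6, 56.9 and 54.3 TPM in CSE. Its log2 change of −0.27 ± 0.07 (SE, edgeR adjusted p = 0.0361) lost its call in 9 settings. With PBS replicate 3 or any 1 CSE library left out the list held 1 call.

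Partners of RIPK3 and MLKL and the membrane repair machinery gave 0 rises and 1 fall among 27 tested genes. In all genes, 4.64% were called higher and 7.36% lower. The list's median log2 change was −0.05 against 0.0056 for all genes. Flot1, a flotillin reported to help remove MLKL from the membrane, measured 91.2, 107 and 93.4 TPM in PBS and 76.3, 70.8 and 63.4 TPM in CSE. Its log2 change was −0.28 ± 0.08 (SE, edgeR adjusted p = 0.0366), a call lost in 6 settings. The list held 0 calls with any 1 CSE library left out, 2 without PBS replicate 1 and 3 without PBS replicate 2. Pdcd6ip, which encodes the ESCRT-associated protein ALIX, followed at −0.26 ± 0.08 (SE, edgeR adjusted p = 0.0539) and was not called.

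The apoptotic caspases and their regulators gave 1 rise and 0 falls among 12 tested genes. In all genes, 4.64% were called higher and 7.36% lower. The list's median log2 change was 0.03 against 0.0056 for all genes. The gene that rose was Cycs, which encodes cytochrome c, at 0.33 ± 0.09 (log2 change ± SE, edgeR adjusted p = 0.0335). It measured 43.5, 44.4 and 40.5 TPM in PBS and 47.5, 45.3 and 49.6 TPM in CSE, and the call was lost in 7 settings. The list held 0 calls when PBS replicate 3 was left out, and likewise for CSE replicate 2 and for CSE replicate 3.

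Zbp1, Mlkl and the p150 form of Adar are known to belong to the interferon-stimulated genes. A list of 18 such genes gave 1 rise and 0 falls among 17 tested, where 4.64% of all genes were called higher and 7.36% lower. The median log2 change was 0.18 against 0.0056 for all genes. The called gene was Ddx58, which encodes the RNA sensor RIG-I, at 0.30 ± 0.08 (log2 change, SE; edgeR adjusted p = 0.0373). It measured 24.8, 30.0 and 31.5 TPM in PBS and 39.0, 32.5 and 28.5 TPM in CSE, where the groups overlapped, and lost its call in 10 settings. The list held 0 calls with any 1 CSE library left out and 2 other calls without PBS replicate 1 or PBS replicate 2. At an unadjusted p under 0.05 stood 5 of the 17, near the 25.7% of all genes, and Rsad2 was too rare to be tested, with 30 counts in PBS and 13 in CSE.

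**Figure D5:**
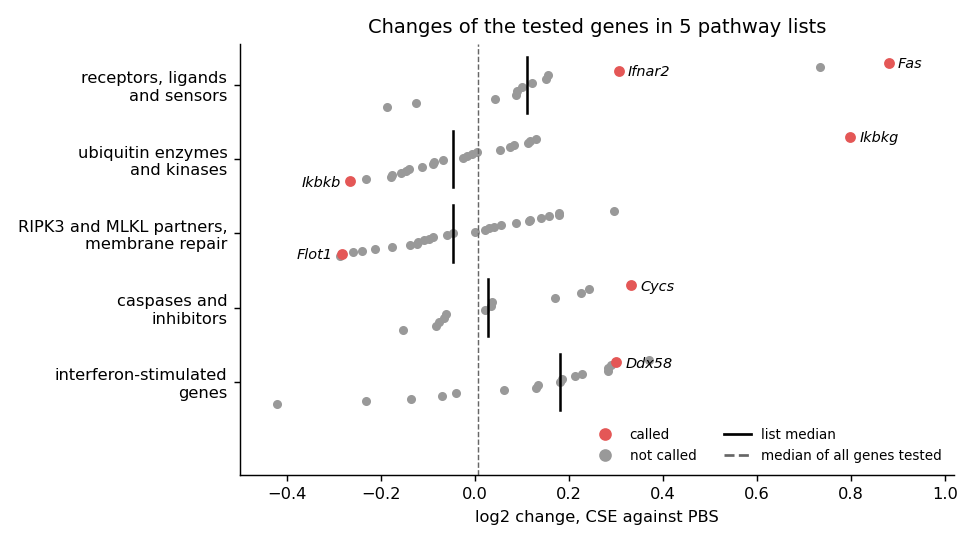
Each point is the log2 change of a tested gene in 1 of 5 pathway lists, red where called, with a black line at the list's median and a dashed line at the median of all genes tested. Fas at 0.88 and Ikbkg at 0.80 stand apart from the other called genes, which lie within 0.33 of 0.

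Likeness to the pattern of Mlkl was searched among 9465 tested protein-coding genes whose mean was 5 TPM or more. Gene models and pseudogenes were left out by name. The genes most like Mlkl over the 6 libraries were Dusp12, Fbxo17, Il6, Neurl3 and Ugt1a6b. Their Pearson correlations of log2(TPM + 0.1) with Mlkl were 0.989 to 0.991, a description over 6 libraries, 3 of each treatment. Neurl3, which encodes a ubiquitin ligase, rose by 1.08 ± 0.12, and Ugt1a6b, a glucuronosyltransferase gene, by 1.84 ± 0.12 (log2 change, SE; edgeR adjusted p = 7.64e-05 and 2.2e-06). The cytokine gene Il6 measured a mean of 4.74 TPM in PBS against 6.33 TPM in CSE, and was not called (edgeR adjusted p = 0.416).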

How the data were processed

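RNA-seq was measured in 6 libraries, grouped as PBS or CSE by the sample titles. The deposited files hold, per the file headers, which are those of kallisto, 118489 transcripts with their estimated counts and TPM. Other columns hold transcript lengths and effective lengths, per the file headers. The submitters' processing notes list GRCm38, kallisto 0.46.2, FastQC 0.12.1, DESeq2 1.40.2 and fastp 0.20.1. The index and the strandedness of the counting were not given in the sources used here. Where a read matches several transcripts, kallisto apportions it by a model, and similar transcripts or genes can exchange counts.

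Transcripts were matched by versioned identifier to GENCODE vM21 (98.6%), and 1673 were dropped, which held 0.638% to 0.664% of the counts. Estimated counts were summed per gene and rounded to whole numbers. Genes were filtered (filterByExpr, minimum count 10), scaled by TMM (factors 0.976 to 1.03) and tested with edgeR 4.0.16 (robust quasi-likelihood fit, two-sided), adjusted over all genes. Transcripts were treated likewise, and their usage was tested with diffSpliceDGE. SE is the size of the log2 change divided by the square root of F. Intervals (95%) and the floor of 3 counts allow for counting error only: without molecular identifiers, reads need not be independent molecules. Alternatives tried were scaling by RLE or by library size, DESeq2 1.42.0, no filter or a mean of 5 CPM, an effective-length offset, limma 3.58.1 on log2(TPM + 1) and log2(TPM + 0.1) for features with a mean of at least 1 TPM, the replicate number as a block, and each library left out. A fit without the robust estimate and a Simes test of usage were added after seeing the data. On the TPM scales a fold change understates that of low genes. Libraries of a group differed beyond sampling noise (5.61 to 17.7 chi-square units per degree of freedom), so none looked like the same library sequenced again. These values cannot tell whether libraries came from separate cultures. Procedures were tested on simulated data. There the usage test made more false calls than its nominal rate. The simulated transcripts varied less between libraries than the real ones, whose biological coefficient of variation was 42.2%. The splitting of reads among transcripts was not simulated. The simulation therefore cannot show how the transcript and usage tests perform on these data.

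Named were all members, their transcripts with a mean of at least 0.5 TPM in a group, in each list every called gene and the 2 genes of smallest p, and the 5 genes most like Mlkl. Overlapping and sequence-sharing genes, marker genes and genes too rare to be tested were named after their values were seen. The members and lists were chosen with earlier results of these data known. Sequences, coding lengths and 31-base words come from the GENCODE vM21 transcripts. R 4.3.3, Python 3.11.15, pandas 2.3.3, scipy 1.17.1 and matplotlib 3.10.9 were used.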

Additional observations from a re-analysis of the deposited data

How the results depend on the processing

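The rise of Mlkl was called in each of 16 other settings, and no member transcript or usage change was called in any setting run. The number of members called was 1 in the other settings and 1 to 2 with a library left out, the second being Casp8 without PBS replicate 2. The number of pathway genes called moved with the library left out, between 1 and 2 for receptors, ligands and sensors, 1 and 2 for ubiquitin enzymes and kinases, 0 and 3 for partners and membrane repair, 0 and 1 for caspases, and 0 and 2 for interferon-stimulated genes. Leaving out any CSE library, or PBS replicate 3, ended the calls of Ifnar2 and Ikbkb, while Fas and Ikbkg kept theirs. Without PBS replicate 2, Ikbkb lost its call and Mapkapk2 gained one. Without PBS replicate 1 the partner list gave 2 calls (Hsp90ab1 and Peli1) and the interferon list 2, and without PBS replicate 2 they gave 3 (Hsp90aa1, Pdcd6ip and Peli1) and 2 (Oasl2 and Rnf213). DESeq2 called 3 partner genes (Flot1, Hsp90ab1 and Pdcd6ip). With limma on log2(TPM + 1) the calls fell to 1 (Fas), 1 (Ikbkg), 0 for caspases and 0 for interferon-stimulated genes. Transcripts whose shares lay apart numbered 0 by estimated counts and 3 to 5 with a library left out, each of which leaves 2 libraries in a group.

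Same-numbered libraries deviated from their group means with correlations of −0.292, −0.0208 and −0.165 over 10348 genes. Libraries of different number gave −0.149 to 0.285. These values show no pairing by replicate number, but cannot tell whether libraries shared a culture or batch. With the replicate number as a block the members called remained 1 (Mlkl, adjusted p = 0.00706), member transcripts and usage 0 and 0, and the list counts became 1 (Fas), 1 (Ikbkg), 0, 0 and 0. The log2 change of Ripk1 was then 0.0014.

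Signs that turned belonged to values that were not called, and the cause was not tested. Ripk3 was at −0.079 with the effective-length offset and at −0.10 and −0.14 on log2(TPM + 1) and log2(TPM + 0.1). Ripk1 was at 0.0033 in DESeq2, 0.0026 without a filter and 0.075 with the offset, and Cflar at 0.025 with the offset. Cflar-204 was at −0.010 and Pgam5-202 at −0.055 on log2(TPM + 0.1), and Ripk1-203 at 0.0027 with RLE size factors. With a library left out, the log2 change ranged from −0.069 to 0.045 for Ripk1, −0.25 to 0.074 for Cflar, −0.092 to 0.046 for Tradd, −0.12 to 0.32 for Cflar-204, −0.26 to 0.17 for Cflar-205, −0.00065 to 0.80 for Cflar-207, −0.044 to 0.12 for Pgam5-202, −0.16 to 0.068 for Ripk1-201, −0.089 to 0.047 for Ripk1-203 and −0.093 to 0.054 for Tradd-201. Depth limits Zbp1 and Ripk3 most, and the coding transcripts of Zbp1 could not be compared.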
